A study of Mus musculus with 40 samples.

Results

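The 10 genes described here belong to the TGF-beta and BMP pathway: the ligand genes Tgfb1, Tgfb2, Tgfb3, Inhba and Bmp4, the receptor genes Tgfbr1, Tgfbr2 and Bmpr1a, and the SMAD genes Smad3 and Smad7. They were chosen by name, and the locus of each was its mm10 GENCODE span with 5 kb upstream. They are 10 of the 21938 protein-coding genes measured, and 9 of the 15204 genes that had a peak in at least 3 libraries and were tested. Bmp4 had no peak in any library.

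Acetylation of histone H3 at lysine 27 (H3K27ac), which marks active promoters and enhancers, was mapped by ChIP-seq. The cells were preadipocytes grown from inguinal white adipose tissue of C57BL/6 mice. Wild type (WT) cells were compared with double knockout (DKO) cells, Hmgn1-/- and Hmgn2-/-, which lack the nucleosome-binding proteins HMGN1 and HMGN2. Cells of both genotypes grew on collagen-coated plates and were taken as preadipocytes (day 0), at days 3 and 6 of differentiation, and as brown-like adipocytes (day 9), with 3 libraries per genotype and day, 24 in all. The donor mice were 8 to 12 weeks old, and the labels give no sex. Both genotypes received the same agents, first insulin, dexamethasone, IBMX, T3 and rosiglitazone, and then a maintenance medium with insulin and T3. The paper calls its H3K27ac replicates biological. Neither the paper nor the labels say whether the 3 libraries of a group came from separate mice. Each p-value thus measures only the spread between these libraries, which may not be that between mice.

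TGF-beta and activin ligands bind a type II receptor, which activates a type I receptor, and the type I receptor phosphorylates SMAD2 and SMAD3. BMP ligands use other type I receptors, among them the product of Bmpr1a, and signal through SMAD1, SMAD5 and SMAD9. SMAD7 is an inhibitory SMAD that SMAD signalling itself induces. In adipose precursors, TGF-beta acting through SMAD3 is known to restrain adipogenesis, and BMP4 is known to promote commitment to the adipocyte lineage.

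The targeted gene Hmgn2 carried a peak in each of the 12 WT libraries and in 0 of the 12 from DKO. Hmgn1 had a peak in 12 of 12 libraries of each genotype, and a peak outside a deleted part checks nothing. The summed length of all peaks of a library, its covered length, differed between groups. At day 6 it was 20.69 to 36.3 Mb in DKO against 55.54 to 60.42 Mb in WT, and at day 9 it was 61.22 to 68.83 Mb in DKO against 48.17 to 59.58 Mb in WT. It was 47.68 to 96.38 Mb in DKO and 46.06 to 54.64 Mb in WT at day 0, and 29.88 to 41.84 Mb in DKO and 31.06 to 52.85 Mb in WT at day 3. DKO day 0 replicate 2, with the 96.38 Mb, had wide peaks, and WT day 3 replicate 3, with the 31.06 Mb, had the smallest WT coverage. The number of sequenced reads is not in the peak lists, so the depth is unknown. Each gene was therefore given by its covered length in kb, by the same length as a share of the covered length of its library (kb per covered Mb), and by the rank of its strongest peak by -log10 q within its library, with rank 1 the strongest. The marker genes named for the labelled cells were present in part. Of the preadipocyte and stromal markers, Pdgfra, Pdgfrb, Ly6a and Col1a1 had a peak in 24 libraries, Cd34 in 15 and Dlk1 in 3. Of the adipocyte markers, Pparg, the master regulator of adipogenesis, Cebpa, Fabp4 and Lpl had one in 24. Plin1 had one in 23 and Adipoq, an adipocyte hormone gene, in 12. A peak in all 24 libraries does not tell the stages apart. Ucp1, the gene of the brown fat uncoupling protein, had a peak in 0. The other brown markers listed, Ppargc1a, Prdm16 and Cidea, had a peak in 24, 22 and 19 libraries.

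Sequences from 4 places are shown, 50 bases either side of a peak summit, on the forward strand of mm10. These were 2 regions reaching gene starts, chosen among those of high -log10 q, and 2 of the 3 with the lowest p of genotype. Capitals mark a CAGAC box, the short element that SMAD3 and SMAD4 bind, read on either strand. The first 2 lie in Smad3 introns where WT had more calls than DKO, and the next near the Smad3 start. The last lies 17.64 kb into Tgfbr2, in the broad region that every library had and that reaches the start.
Smad3 intron, chr9:63716664-63716764: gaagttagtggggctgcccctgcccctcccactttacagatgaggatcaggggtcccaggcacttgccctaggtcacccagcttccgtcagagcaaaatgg
Smad3 intron, chr9:63711685-63711785: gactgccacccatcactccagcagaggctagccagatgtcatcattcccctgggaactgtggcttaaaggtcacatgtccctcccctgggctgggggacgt
Smad3 intron near the start, chr9:63757343-63757443: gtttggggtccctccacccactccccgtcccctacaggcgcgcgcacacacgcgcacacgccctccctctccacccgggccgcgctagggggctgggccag
Tgfbr2 intron, chr9:116157674-116157774: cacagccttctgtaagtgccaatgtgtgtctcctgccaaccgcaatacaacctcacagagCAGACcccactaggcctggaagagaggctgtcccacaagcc

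The promoters of 3 genes are shown because they span the range of what the libraries had there: a peak in 24 libraries for Tgfbr2, in 4 for Tgfbr1 and in 0 for Bmp4, over 300 bp from 250 bases before the RefSeq start. The 250 bases upstream of the start are printed in the direction of the gene, from RefSeq on GRCm38, with a CAGAC box or a GGCGCC element in capitals.
Bmp4 promoter, chr14:46390670-46390919, minus strand: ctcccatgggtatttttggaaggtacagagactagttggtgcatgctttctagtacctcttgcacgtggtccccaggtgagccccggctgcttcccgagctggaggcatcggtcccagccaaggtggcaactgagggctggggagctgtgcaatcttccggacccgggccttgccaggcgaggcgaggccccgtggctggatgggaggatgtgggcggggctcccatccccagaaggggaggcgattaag
Tgfbr1 promoter, chr4:47352972-47353221, plus strand: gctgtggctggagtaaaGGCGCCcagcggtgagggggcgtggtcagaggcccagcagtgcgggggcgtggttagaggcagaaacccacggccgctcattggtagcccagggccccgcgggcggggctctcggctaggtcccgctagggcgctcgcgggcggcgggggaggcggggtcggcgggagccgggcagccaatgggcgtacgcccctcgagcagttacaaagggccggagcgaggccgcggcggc
Tgfbr2 promoter, chr9:116175364-116175613, minus strand: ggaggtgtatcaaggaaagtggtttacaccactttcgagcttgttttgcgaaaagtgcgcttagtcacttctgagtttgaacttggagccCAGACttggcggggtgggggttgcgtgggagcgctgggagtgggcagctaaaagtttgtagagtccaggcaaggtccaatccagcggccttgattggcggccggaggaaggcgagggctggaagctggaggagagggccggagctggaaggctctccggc

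Across the 4 days, covered kb was lower on average in DKO for 8 of the 9 genes tested and higher for Tgfb1. None of the 9 passed the exact permutation test with Benjamini-Hochberg adjustment over the 15204 genes. At an adjusted p under 0.05, 0 were lower (0.125% of all genes tested) and 0 were higher (0.0263%). At an unadjusted p under 0.05, 0 were lower (5.91%) and 0 were higher (3.95%). This count moved to 3 when either of 2 libraries was left out. The share of all genes under these settings was not counted, so the move is not read as particular to these genes. Without DKO day 0 replicate 2, Smad7 (exact permutation p = 0.00153), Smad3 (p = 0.00266) and Bmpr1a (p = 0.027) were lower, with adjusted p of 0.0642, 0.0773 and 0.189. Without WT day 3 replicate 3 the same 3 genes were lower (exact permutation p = 0.0292, 0.0484 and 0.0436). Their adjusted p were then 0.381, 0.433 and 0.424, and no adjusted p in either setting was under 0.05. As a share of the covered length of each library, 3 of the 9 were called: Smad3 and Smad7 were lower in DKO (5.69% of all genes were) and Tgfb1 was higher (9.19% were). Over the gene span alone, an alternative added after seeing the data, Smad3 and Smad7 were called on this scale and Tgfb1 was not. The share of all genes called there was not counted. In cells measured in bulk, fewer cells of a type and less acetylation per cell cannot be told apart.

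**Figure D1:**
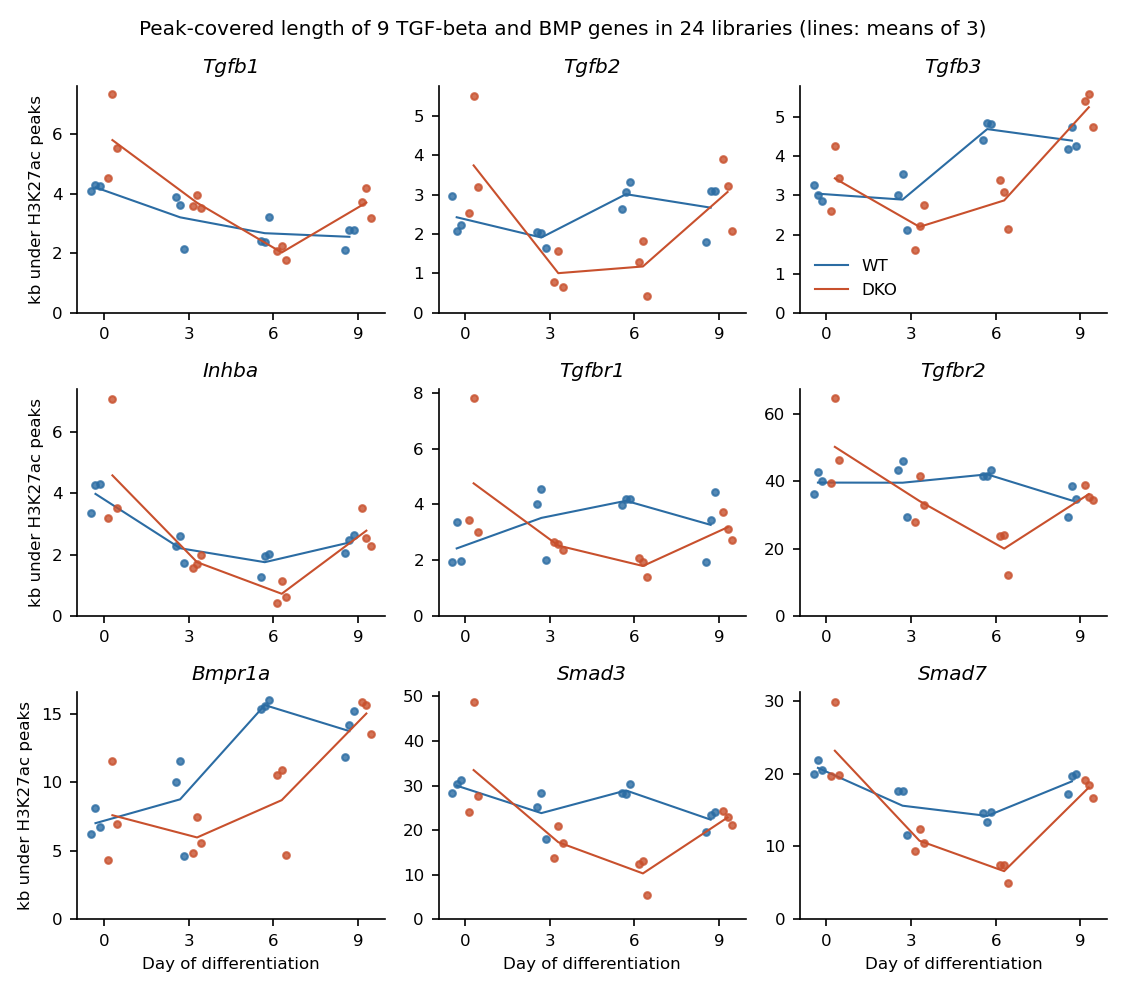
Covered length (kb, vertical axis) of the 9 tested genes by day of differentiation, with 1 point per library and lines through the means of 3 libraries. At day 6 every DKO point lies below every WT point in all 9 panels.

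Tgfb1, on chromosome 7 from 25687002 to 25705077 (plus strand), encodes the most widely expressed TGF-beta. Its covered length at day 0 was 4.08, 4.29 and 4.27 kb in WT and 4.52, 7.34 and 5.54 kb in DKO. At day 3 it was 3.89, 3.605 and 2.12 kb in WT and 3.59, 3.96 and 3.53 kb in DKO. The DKO libraries were all above WT at day 0, and the genotypes overlapped at day 3. At day 6 the length was 2.41, 2.39 and 3.22 kb in WT and 2.07, 2.23 and 1.77 kb in DKO. At day 9 it was 2.1, 2.77 and 2.78 kb in WT and 3.725, 4.205 and 3.17 kb in DKO. DKO was thus below WT without overlap at day 6 and above it without overlap at day 9. Over the days the DKO minus WT difference was +0.65 kb (exact permutation p = 0.0534, adjusted p = 0.502). Over the gene span alone it was +0.11 kb (exact permutation p = 0.503). The upstream 5 kb of its window overlaps B9d2, which runs from 25680780 to 25686558, so peaks there cannot be assigned to one gene.

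As a share of the library, Tgfb1 was higher in DKO at 3 of the 4 days without overlap. At day 0 it took 0.0886, 0.0784 and 0.0838 kb per covered Mb in WT and 0.0949, 0.0762 and 0.0956 in DKO. At day 3 the values were 0.0780, 0.0682 and 0.0683 in WT and 0.120, 0.0947 and 0.107 in DKO. The genotypes overlapped at day 0 and were apart at day 3. At day 6 they were 0.0427, 0.0430 and 0.0532 kb per covered Mb in WT and 0.0584, 0.0613 and 0.0856 in DKO. At day 9 they were 0.0436, 0.0465 and 0.0474 in WT and 0.0541, 0.0662 and 0.0518 in DKO. Every DKO library was above every WT library at days 3, 6 and 9, so the direction at day 6 was opposite to that in kb. The mean was 0.0618 in WT and 0.0805 kb per covered Mb in DKO, a difference of +0.0187 (exact permutation p = 0.000287, adjusted p = 0.0071). Leaving out DKO day 0 replicate 2 gave +0.0202 (exact permutation adjusted p = 0.00179). Over the gene span alone the difference was +0.00995 kb per covered Mb (exact permutation p = 0.0496, adjusted p = 0.174), so the call was lost without the upstream 5 kb.

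The summed share of 5 macrophage and leukocyte markers (Ptprc, Csf1r, Adgre1, Cd68 and Itgam) also lay higher in DKO at each day. It was 0.568 to 0.611 kb per covered Mb in DKO against 0.42 to 0.477 in WT at day 0, and 0.503 to 0.549 against 0.342 to 0.356 at day 3. It was 0.251 to 0.314 in DKO against 0.161 to 0.18 in WT at day 6, and 0.15 to 0.169 against 0.132 to 0.145 at day 9. All 5 markers had a peak in each group but DKO at day 9, where 4 of 5 did. The part of these cells in the Tgfb1 values was not tested.

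Tgfb2 and Tgfb3 encode the other TGF-beta ligands, and Inhba encodes the subunit of activin A. Tgfb2, on chromosome 1 from 186622792 to 186705989 (minus strand), ranged from 0.419 to 5.51 kb over the libraries and had the weakest peaks of the 3 TGF-beta genes, with folds of 4.99 to 10.9. It was the gene that lay lower in DKO without overlap at day 3, at 0.657 to 1.58 kb against 1.65 to 2.06 kb in WT. Over the days it differed by -0.26 kb (exact permutation p = 0.542), and by -0.48 kb without DKO day 0 replicate 2 (exact permutation p = 0.145). Tgfb3, on chromosome 12 from 86056745 to 86079041 (minus strand), ranged from 1.62 to 5.60 kb and differed by -0.32 kb (exact permutation p = 0.319). Its window also held the start of Ift43, 3.5 kb upstream, so peaks there cannot be assigned to one of the 2 genes. The far end of its span, up to 86061893, lies within Ttll5 too, with the same limit. Inhba, on chromosome 13 from 16011851 to 16031621 (plus strand), ranged from 0.409 to 7.06 kb and differed by -0.12 kb (exact permutation p = 0.79), and by -0.43 kb without DKO day 0 replicate 2 (exact permutation p = 0.0512).

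Bmp4, on chromosome 14 from 46383520 to 46390669 (minus strand), had no peak in any of the 24 lists. The nearest peak to the gene lay 64.62 kb away, in DKO day 9 replicate 3, and the median distance over libraries was 239.5 kb. Its start lay in a stretch of 188 kb with no peak in any library. The printed promoter held 63.2% G and C and 11 CpG pairs. Of the 16505 genes with a RefSeq promoter, 41.5% had no peak over that window in any library. A gene without a peak is below the threshold of the caller at this depth, which is not the same as carrying no acetylation.

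Tgfbr2 encodes the type II receptor for TGF-beta and had the longest covered length of the 9 genes. It lies on chromosome 9 from 116084293 to 116175360 (minus strand). Its covered length at day 0 was 36.1, 42.7 and 39.9 kb in WT and 39.6, 64.7 and 46.3 kb in DKO. Day 3 values were 43.3, 46.0 and 29.3 kb in WT and 28.0, 41.4 and 32.9 kb in DKO. WT and DKO overlapped at both days. At day 6 it was 41.4, 41.4 and 43.2 kb in WT and 23.8, 23.9 and 12.2 kb in DKO. At day 9 it was 29.5, 38.6 and 34.7 kb in WT and 38.8, 35.4 and 34.3 kb in DKO. All DKO libraries were thus below WT at day 6, and the genotypes overlapped at day 9. Over the days the difference was -3.75 kb (exact permutation p = 0.335), and as a share it was -0.0215 kb per covered Mb (exact permutation p = 0.322), with DKO below WT without overlap at days 6 and 9. Without DKO day 0 replicate 2 the share differed by -0.00956 (exact permutation p = 0.616). A peak of this gene ranked between 17 and 3307 in its library, and its folds were 14.2 to 32.4. It was the gene with the best rank of the 9.

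Bmpr1a encodes a type I receptor for BMP ligands and lies on chromosome 14 from 34410734 to 34503341 (minus strand). Its covered length at day 0 was 6.18, 8.09 and 6.76 kb in WT and 4.28, 11.6 and 6.92 kb in DKO. Day 3 values were 10.04, 11.6 and 4.635 kb in WT and 4.84, 7.495 and 5.57 kb in DKO. On both days the groups overlapped. At day 6 it was 15.4, 15.6 and 15.98 kb in WT and 10.5, 10.9 and 4.72 kb in DKO. At day 9 it was 11.8, 14.2 and 15.2 kb in WT and 15.9, 15.7 and 13.6 kb in DKO. The genotypes were apart at day 6 and overlapped at day 9, and over the days the difference was -1.97 kb (exact permutation p = 0.109).

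The strongest Bmpr1a peak stood further down the list of its library in DKO at days 0 and 3. Its rank at day 0 was 4963, 3015 and 1133 in WT and 11209, 7094 and 7806 in DKO. At day 3 it was 2954, 3135 and 1437 in WT and 12446, 6169 and 5751 in DKO. No DKO library ranked it as high as any WT library on these days. At day 6 the rank was 771, 3156 and 579 in WT and 2988, 4341 and 2426 in DKO, and at day 9 it was 1388, 1257 and 1374 in WT and 814, 1322 and 1187 in DKO. The genotypes overlapped at days 6 and 9. Over the days the rank was 2.22 times as large in DKO (log2 difference +1.15, exact permutation p = 0.00241, adjusted p = 0.0509), which missed the threshold over all genes. Its fold at day 3 was 19.1 to 19.5 in WT and 7.89 to 11.3 in DKO, while at day 9 it was 23.3 to 25.9 in WT and 27.4 to 32.3 in DKO.

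Tgfbr1, which encodes the type I receptor that partners Tgfbr2, lies on chromosome 4 from 47353222 to 47414931 (plus strand). Its covered length ranged from 1.38 to 7.81 kb and differed by -0.27 kb over the days (exact permutation p = 0.687), and by -0.65 kb without DKO day 0 replicate 2 (exact permutation p = 0.118). Its strongest regions flanked the start, since the annotated start itself lay in a gap of 0.375 kb with no peak in any library, and 4 libraries had a peak over the promoter window. The region just upstream, from 47351374 to 47353211, was called in 24 of 24 libraries with a median fold of 15.

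Smad3, which encodes the receptor-activated SMAD of the TGF-beta branch, lies on chromosome 9 from 63646767 to 63757994 (minus strand). Its covered length at day 0 was 28.4, 30.4 and 31.2 kb in WT and 24.02, 48.7 and 27.7 kb in DKO. By day 3 it was 25.1, 28.4 and 17.9 kb in WT and 13.8, 20.8 and 17.2 kb in DKO. There was overlap at both days. At day 6 it was 28.3, 28.1 and 30.3 kb in WT and 12.4, 13.0 and 5.34 kb in DKO. At day 9 it was 19.6, 23.3 and 24.1 kb in WT and 24.4, 22.9 and 21.1 kb in DKO. The day 6 DKO libraries had 0.355 times the WT length, the lowest ratio of the 9 genes, and at day 9 the genotypes overlapped. Over the days the difference was -5.30 kb (exact permutation p = 0.0746, adjusted p = 0.562).

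As a share of the library, Smad3 was lower in DKO. It took 0.616, 0.556 and 0.612 kb per covered Mb in WT and 0.504, 0.506 and 0.477 in DKO at day 0. At day 3 the values were 0.504, 0.537 and 0.577 in WT and 0.461, 0.498 and 0.520 in DKO. DKO was below WT without overlap at day 0 and overlapped it at day 3. At day 6 they were 0.501, 0.506 and 0.501 kb per covered Mb in WT and 0.351, 0.359 and 0.258 in DKO. At day 9 they were 0.407, 0.391 and 0.411 in WT and 0.354, 0.361 and 0.345 in DKO. The genotypes did not overlap at days 6 and 9 either. The mean was 0.510 in WT and 0.416 in DKO, a difference of -0.0939 kb per covered Mb (exact permutation p = 2.5e-05, adjusted p = 0.0019). Leaving out DKO day 0 replicate 2 gave -0.0951 (exact permutation adjusted p = 0.0022). With every peak set to 250 bp either side of its summit the difference in kb was -6.02 (exact permutation adjusted p = 0.0384). The share of all genes called in that setting was not counted. Among the 20000 strongest peaks of each library the difference was -1.07 kb (exact permutation p = 0.859).

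Smad7, which encodes the inhibitory SMAD, lies on chromosome 18 from 75367529 to 75395935 (plus strand). Its covered length at day 0 was 19.9, 21.9 and 20.6 kb in WT and 19.7, 29.9 and 19.8 kb in DKO. By day 3 it was 17.7, 17.5 and 11.6 kb in WT and 9.37, 12.4 and 10.5 kb in DKO. At both days the ranges overlapped. At day 6 it was 14.6, 13.3 and 14.7 kb in WT and 7.40, 7.40 and 4.96 kb in DKO. At day 9 it was 17.2, 19.6 and 19.96 kb in WT and 19.1, 18.5 and 16.7 kb in DKO. The genotypes were apart at day 6, with DKO lower, and overlapped at day 9. Over the days the difference was -2.72 kb (exact permutation p = 0.0553, adjusted p = 0.51).

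As a share of the library, Smad7 at day 0 took 0.432, 0.401 and 0.404 kb per covered Mb in WT and 0.413, 0.310 and 0.342 in DKO. At day 3 it took 0.355, 0.332 and 0.372 in WT and 0.314, 0.297 and 0.317 in DKO. The genotypes overlapped at day 0 and DKO was below WT without overlap at day 3. At day 6 it took 0.258, 0.239 and 0.243 kb per covered Mb in WT and 0.209, 0.204 and 0.240 in DKO. At day 9 it took 0.357, 0.330 and 0.341 in WT and 0.277, 0.291 and 0.273 in DKO. The genotypes overlapped at day 6 by 1 DKO library and were apart at day 9. The mean was 0.339 in WT and 0.291 in DKO, a difference of -0.0479 kb per covered Mb (exact permutation p = 0.0001, adjusted p = 0.004). Leaving out DKO day 0 replicate 2 gave -0.0423 (exact permutation adjusted p = 0.00489). Among the 20000 strongest peaks of each library the difference in kb was -1.14 (exact permutation p = 0.694). Its strongest peak at day 6 had a fold of 25.6 to 30.2 in WT and 11.3 to 16.2 in DKO.

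The summed share of the 6 preadipocyte and stromal markers also lay lower in DKO than in WT at days 0, 6 and 9. It was 0.71 to 0.967 kb per covered Mb in DKO against 0.995 to 1.06 in WT at day 0, and 0.914 to 0.948 against 0.898 to 1.09 at day 3. It was 0.534 to 0.596 in DKO against 0.748 to 0.771 in WT at day 6, and 0.76 to 0.779 against 0.862 to 0.939 at day 9. Of these markers Dlk1 had a peak in 3 libraries and Cd34 in 15. The summed share of the 6 adipocyte markers lay higher in DKO at day 0 (0.257 to 0.289 against 0.225 to 0.25), lower at day 3 (0.442 to 0.497 against 0.508 to 0.524), and higher at day 6 (1.76 to 2.06 against 1.26 to 1.3) and day 9 (1.12 to 1.2 against 0.934 to 0.969). The part of these cells in the Smad3 and Smad7 values was not tested.

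**Figure D2:**
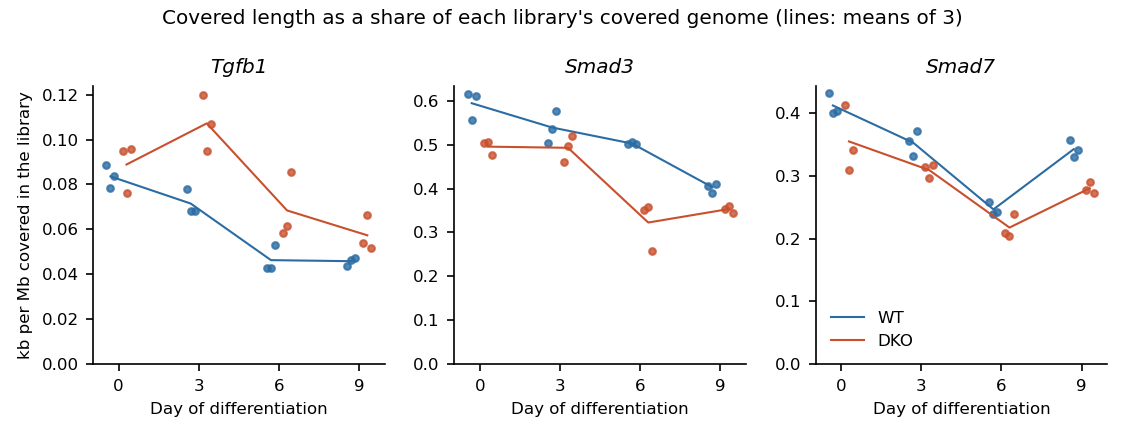
Covered length per covered Mb of library (kb per Mb, vertical axis) by day, with 1 point per library and lines through the means of 3. On this scale Smad3 averages 0.510 in WT and 0.416 in DKO, and Tgfb1, with the 5 kb upstream of its start, averages 0.0618 in WT and 0.0805 in DKO.

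In covered kb, day 6 had the most genes with separate genotypes of the 4 days, while as a share of the library days 6 and 9 had 4 each. In kb at day 6, DKO lay below WT without overlap for 9 of the 9 genes, where 59.6% of all genes tested did, and above it for 0 of 9 (0.0855%). The change in mean covered kb was -24.3% for Tgfb1, -38.9% for Tgfb3, -44.4% for Bmpr1a, -52.5% for Tgfbr2 and -53.5% for Smad7. It was -56.6% for Tgfbr1, -58.9% for Inhba, -61% for Tgfb2 and -64.5% for Smad3. Across all genes 91.4% were lower in DKO at day 6, with a median of -0.53 kb, against a median of -2.34 kb for the 9. These medians are not scaled to the length each gene had under peaks, so they do not compare relative losses. The mean covered length of a library at day 6 was 30.79 Mb in DKO and 57.46 Mb in WT. The exact permutation p of a single day was 0.1 for each of the 9 genes, the smallest that 3 libraries against 3 allow. As a share of the library 3 of the 9 lay below WT without overlap at day 6, namely Smad3, Tgfbr1 and Tgfbr2 (14.4% of all genes did), and 1, Tgfb1, lay above it (37.8% did). The mean share of Tgfb1, Tgfb3 and Bmpr1a at day 6 was higher in DKO, by 0.0221, 0.0129 and 0.00218 kb per covered Mb.

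At day 0, 0 of the 9 lay below WT without overlap (0.704% of all genes) and 1, Tgfb1, lay above (18.4%). This Tgfb1 separation was not seen over the gene span alone. At day 3, 1 of the 9, Tgfb2, lay below (10.8%) and 0 lay above (0.862%), and without WT day 3 replicate 3 the count below was 8, where 51.5% of all genes lay below. At day 9, 0 lay below (2.08%) and 1, Tgfb1, lay above (29.3%).

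Whether the genotype difference changed with the day was tested in one value per gene. Of the 9 genes 4 had an unadjusted exact permutation p under 0.05 (45.9% of all genes), and 0 had an adjusted p under 0.05 (17.1%). The 4 were Tgfb2 (p = 0.00906), Tgfbr1 (p = 0.0103), Tgfb3 (p = 0.0108) and Tgfbr2 (p = 0.0189), each from the exact permutation test. For Tgfb1 the value was p = 0.0801 by the exact permutation test (adjusted p = 0.141). Without day 6, a choice made after seeing the data, the average difference of Tgfb2, Tgfb3, Inhba, Tgfbr1 and Tgfbr2 was higher in DKO, by 0.27, 0.18, 0.18, 0.42 and 2.35 kb.

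**Figure D3:**
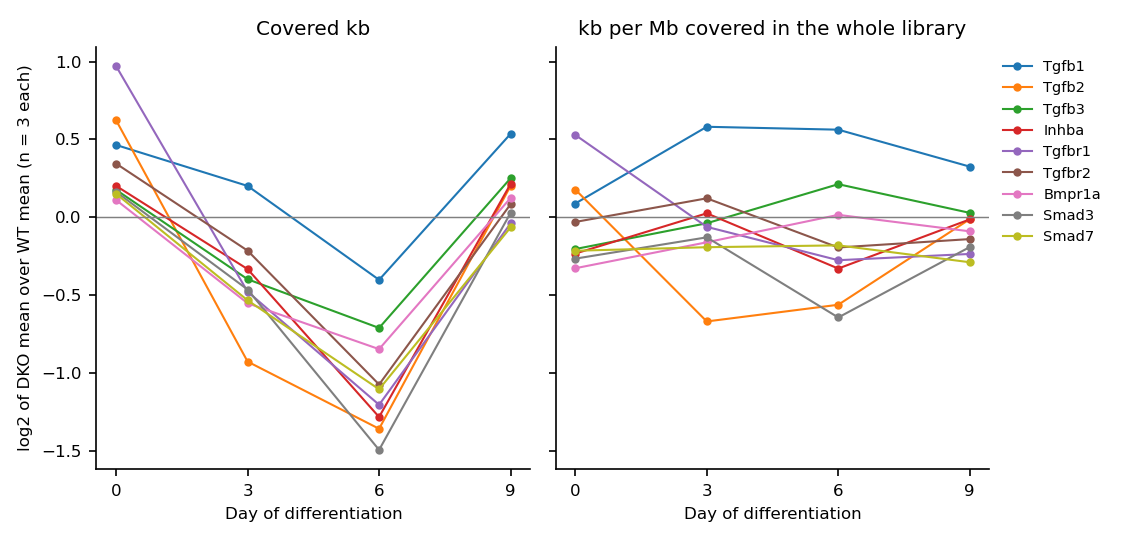
Log2 ratio of DKO to WT mean (vertical axis) for the 9 genes at days 0, 3, 6 and 9, in a panel of covered kb and a panel of kb per covered Mb. In covered kb all 9 lines are below 0 at day 6, where the Smad3 ratio is 0.355 before the log. In kb per covered Mb the lines of Tgfb1, Tgfb3 and Bmpr1a are above 0 at day 6.

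From day 0 to day 9, with the genotypes averaged, 5 of the 9 genes fell at an adjusted p under 0.05 (14.8% of all genes did) and 2 rose (16.4% did). Tgfb1 fell by 1.88 kb (exact permutation adjusted p = 0.0203), Inhba fell by 1.69 kb (adjusted p = 0.0481), Tgfbr2 fell by 9.69 kb (adjusted p = 0.0481), Smad3 fell by 9.14 kb and Smad7 fell by 3.45 kb (adjusted p = 0.0352 each). Bmpr1a rose by 7.08 kb and Tgfb3 rose by 1.59 kb (exact permutation adjusted p = 0.0203 each). Tgfb2 and Tgfbr1 differed by -0.22 and -0.37 kb and did not pass. The median of all genes was +0.04 kb.

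The size of several of these changes differed when 1 library was left out. Without DKO day 0 replicate 2, the wide-peak library, the day 9 minus day 0 difference was -5.33 kb for Smad3 (adjusted p = 0.0357), -6.06 kb for Tgfbr2 (adjusted p = 0.0441), -1.07 kb for Inhba (adjusted p = 0.0441) and -1.76 kb for Smad7 (adjusted p = 0.0526), all by the exact permutation test. Tgfb1 over the gene span alone differed by -0.43 kb (exact permutation adjusted p = 0.117) and Tgfbr2 by -7.63 kb (adjusted p = 0.134). With -log10 q of at least 5, Tgfbr2 differed by -8.97 kb (exact permutation adjusted p = 0.141) and Smad3 by -7.81 kb (adjusted p = 0.0524). Among the 20000 strongest peaks of each library 0 genes fell and 0 rose at an adjusted p under 0.05, and 0% of all genes tested did either, so this setting does not separate the 9 from the rest. The summed share of the adipocyte markers was 0.225 to 0.289 kb per covered Mb at day 0 and 0.934 to 1.2 at day 9 over both genotypes. That of the macrophage and leukocyte markers was 0.42 to 0.611 at day 0 and 0.132 to 0.169 at day 9. Their part in the changes of the 9 genes was not tested.

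The earlier steps were of both directions. From day 0 to day 3, 5 of the 9 genes were lower at an adjusted p under 0.05 (25.2% of all genes) and 0 were higher (1.18%). These were Tgfb1 (-1.56 kb), Tgfb2 (-1.63 kb), Inhba (-2.30 kb) and Smad7 (-8.79 kb), each with adjusted p = 0.0234, and Smad3 (-11.2 kb, adjusted p = 0.0379), all by the exact permutation test. Without WT day 3 replicate 3 the count was 3 (20.2% of all genes). From day 3 to day 6 no gene passed after adjustment, and at an unadjusted p under 0.05, 2 were lower, Tgfb1 and Inhba (5.7% of all genes), and 2 were higher, Tgfb3 and Bmpr1a (19.2%). From day 6 to day 9 none passed after adjustment, and at an unadjusted p under 0.05, 0 were lower (0.27%) and 2 were higher (30.7%), Smad7 by 8.13 kb and Inhba by 1.35 kb (exact permutation p = 0.005 each, the smallest that 2 days allow, adjusted p = 0.0519).

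The rank of the strongest peak gave a second readout of the same loci. Before adjustment, at a p under 0.05, 3 of the 9 genes had a weaker strongest peak in DKO (6.88% of all genes did) and 0 had a stronger one (14.4%). After adjustment 0 were weaker (1.34%) and 0 were stronger (3.18%). The 3 were Bmpr1a, Tgfb2, whose rank was 1.36 times as large in DKO (exact permutation p = 0.0115, adjusted p = 0.11), and Inhba, at 1.30 times (exact permutation p = 0.0327, adjusted p = 0.191). For Tgfb3 the rank was 0.639 times that of WT (exact permutation p = 0.063), with every DKO library ranking it higher at days 3 and 6. Without DKO day 0 replicate 2 the log2 difference of Tgfb3 was -0.76 (exact permutation p = 0.0194). For Smad7 the rank was 1.53 times that of WT (exact permutation p = 0.0712). Among the 20000 strongest peaks the log2 difference of Tgfb2 was +0.07 (exact permutation p = 0.02), against +0.45 with all peaks, and that of Inhba was +0.16 (exact permutation p = 0.257), against +0.37.

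**Figure D4:**
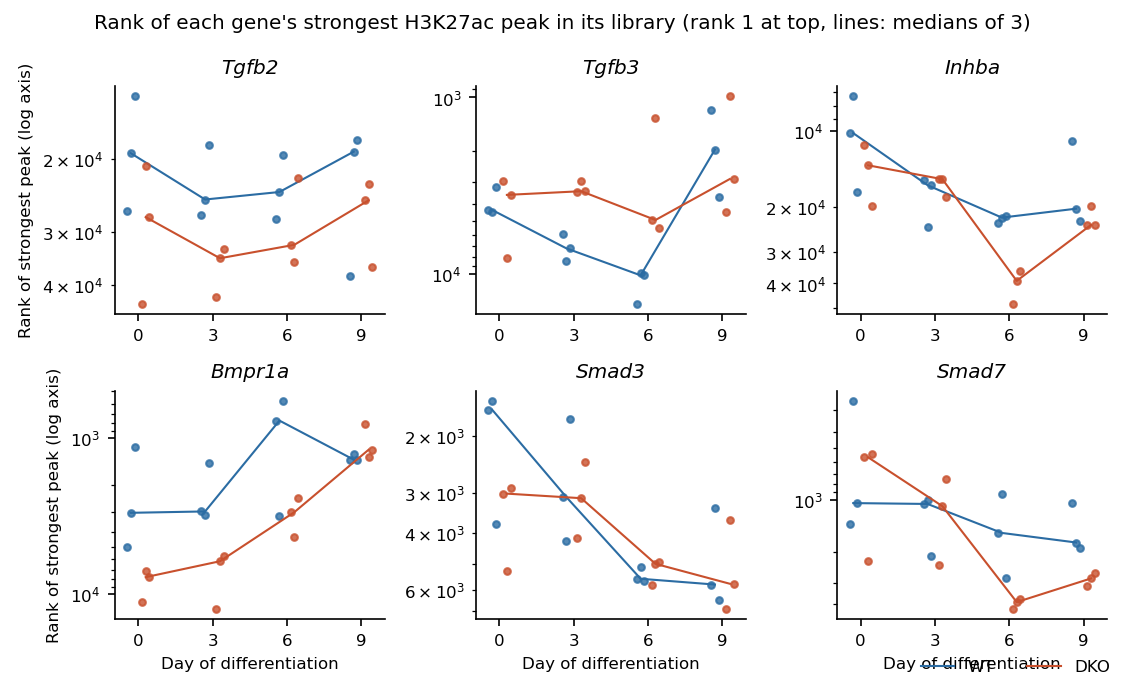
Rank of the strongest H3K27ac peak of each gene in its library (log axis, rank 1 at the top) by day, with 1 point per library and lines through medians of 3. The Bmpr1a panel has the DKO points below the WT points at days 0 and 3, and the genotypes overlap at day 9.

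Joining peaks of the 24 lists gave 175 merged regions in the 10 loci, of 169358 in all. In these loci 23 regions were called in 24 libraries and 65 in fewer than 3. Smad3 had 44 regions, Tgfbr2 41, Bmpr1a 31, Tgfbr1 24 and Tgfb2 10, while Tgfb3 had 7 and Tgfb1, Inhba and Smad7 had 6 each. The Smad7 regions were few but broad, 1 of them 25.2 kb long from 75367490 to 75392728. The Smad7 region just upstream of the start, from 75366196 to 75367449, had a median fold of 23.4, above the 17.9 of the Bmpr1a start region and the 17.1 of the Smad3 start region. The region over the Tgfbr2 start was 35.2 kb long, from 116142302 to 116177531, with a median fold of 24.4. Its median summit lay 17.64 kb into the gene, so this fold is not that of the promoter alone. Each of the 9 genes with peaks had a region within or near its promoter in 24 of 24 libraries, from a median fold of 6.74 for Tgfb2 to 24.4 for Tgfbr2.

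Of 79 regions tested for the number of libraries with a call, 17 leaned to DKO in their calls, and most of the others leaned to WT. The share of all regions that leaned each way was not counted, so no lean particular to these loci is read from this. With p below 0.05 before adjustment, 6 favoured WT (4.82% of all regions tested) and 0 favoured DKO (0.456%). After adjustment over 71228 regions 0 passed. The lowest p belonged to a Smad3 intron region from 63716562 to 63717144, 41.28 kb into the gene, with a peak in all 12 WT libraries but in 3 of the 12 from DKO (exact permutation p = 0.0008, adjusted p = 0.455). Its sequence is the first printed above. A Smad3 region from 63711223 to 63712656, whose sequence is the second printed, was called in 9 WT and 2 DKO libraries (exact permutation p = 0.0152). The region from 63717344 to 63718059 was called in 6 WT and 0 DKO libraries (exact permutation p = 0.016), and the region from 63654830 to 63660723 in 12 WT and 7 DKO libraries (exact permutation p = 0.02).

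In Tgfbr2 a region from 116087142 to 116087712, in the untranslated part of an exon 88.02 kb from the start, was called in 10 WT libraries and 1 DKO library (exact permutation p = 0.00155, adjusted p = 0.455). An intron region from 116128202 to 116128715 was called in 5 WT and 0 DKO libraries (exact permutation p = 0.04). These were weak peaks, with a median fold of 4.77 and 3.75, and the Smad3 region with the lowest p had 5.45. Among the 20000 strongest peaks of each library 19 regions of the 10 loci were tested and 0 had p below 0.05 before adjustment, against 2.68% of all regions in favour of WT and 2.09% of DKO.

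Regions called in 3 of 3 WT libraries and 0 of 3 DKO libraries at day 6 numbered 12 of the 175 (6.86%), where 4.55% of all regions did. The 12 lay in Tgfbr2 (4), Smad3 (3), Tgfbr1 (2), Bmpr1a (2) and Tgfb3 (1). None of the 175 was called the other way, and the share of all regions that were was not counted. With the course of differentiation, 1 region was called in all 6 libraries of day 0 and in none of day 9, in a Tgfbr2 intron from 116125944 to 116128140 (0.571% of the 175 and 1.29% of all regions). The reverse held for 2 regions (1.14% of the 175 and 2.54% of all regions). They lay in a Bmpr1a intron from 34470551 to 34471390 and at the far end of Tgfb3 from 86057314 to 86058452. The latter region lies within Ttll5 too, so it cannot be assigned to one gene.

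**Figure D5:**
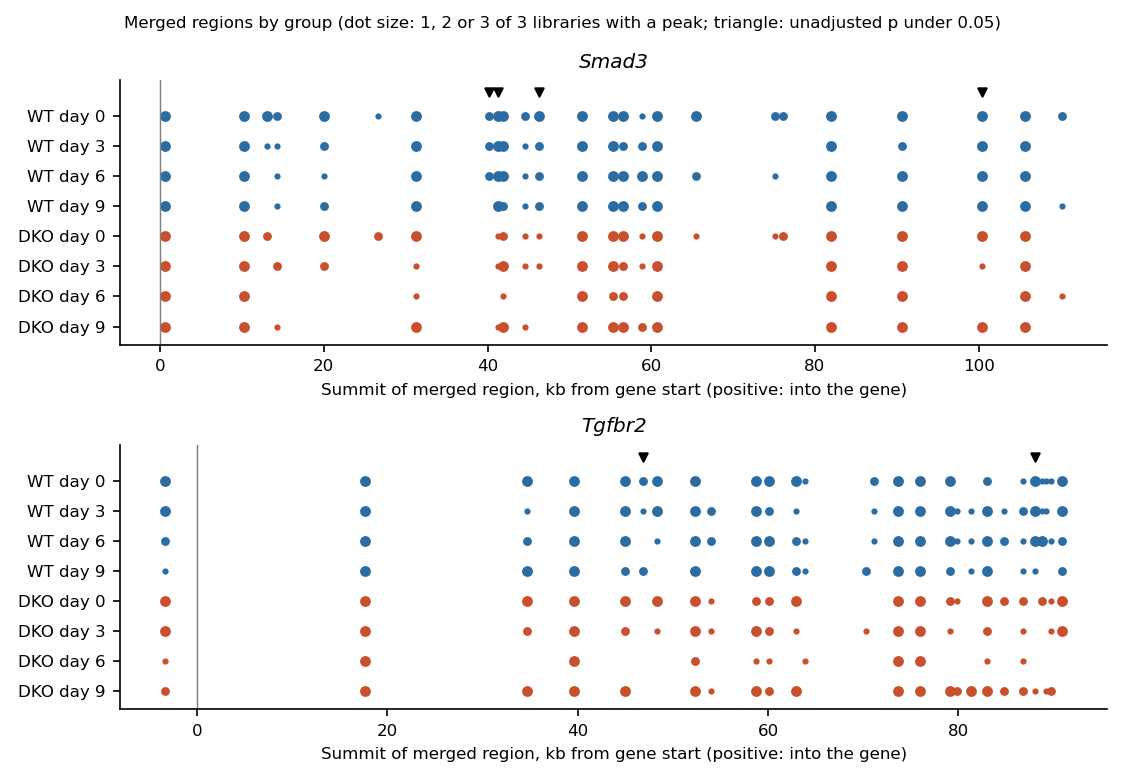
Merged regions by distance of their summit from the gene start (kb, horizontal axis) in each genotype and day (rows), with dot size for 1, 2 or 3 of 3 libraries with a peak. Triangles mark regions with an unadjusted p under 0.05, of which Smad3 has 4 and Tgfbr2 has 2.

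The DNA under the summits was searched on both strands for 5 motifs, in 101 bases per region. The CAGAC box lay in 41 of the 175 regions (23.4%) and in 24.1% of all regions, and the AP-1 site, TGACTCA or TGAGTCA, in 3 (1.71%) and in 1.67%. The SMAD palindrome GTCTAGAC, the GC-rich SMAD element GGCGCC and the C/EBP site TTGCGCAA lay in none of the 175, and in 0.103%, 0.739% and 0.01% of all regions. No motif contains another. In the RefSeq promoters, which 8 of the 10 genes had, CAGAC lay in 40.6% of 16505 promoters and GGCGCC in 12.6%. Tgfb2 and Tgfbr2 held the former and Tgfbr1 and Bmpr1a the latter. G and C made up 43.2% of the Inhba promoter and 78.8% of the Bmpr1a promoter, against 55.5% over all promoters, and CpG pairs numbered 3 and 36, against a median of 10.

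Of 66 other genes of the pathway, 57 were tested, and 0 passed the genotype test in covered kb after adjustment. Of all genes tested, 0.125% passed as lower and 0.0263% as higher in DKO. At an unadjusted p under 0.05, 10 of the 57 were lower in DKO (5.91% of all genes) and 2 were higher (3.95%). The smallest p was that of Inhbb, the other activin subunit gene, with a mean of 1.76 kb in WT and 0.692 kb in DKO (exact permutation p = 0.00015, adjusted p = 0.0671). Tgfbi, a TGF-beta-induced matrix protein gene, was next, with 3.23 kb in WT and 4.93 kb in DKO (exact permutation p = 0.00364, adjusted p = 0.232). Fbn1, the fibrillin gene whose product binds latent TGF-beta, differed by -30 kb (p = 0.0112), Acvr2a, an activin receptor gene, by -2.12 kb (p = 0.014) and Gdf10, a BMP-like ligand gene, by -1.62 kb (p = 0.0189), by the same exact permutation test. At day 6, 46 of the 57 lay below WT without overlap (59.6% of all genes did), and at day 9, 17 lay above (29.3%).

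In the strongest-peak rank 4 of the 57 passed after adjustment, where 1.34% of all genes passed as weaker and 3.18% as stronger in DKO. Tgfbi and Ltbp2, a latent TGF-beta binding protein gene, ranked higher in DKO, at 0.633 and 0.648 times the WT rank, and Fbn1 ranked lower, at 2.77 times. The other was Acvr1c, the ALK7 receptor gene, which had a peak in 13 of 24 libraries. A library without a peak took a rank just past the end of its list, so the Acvr1c value follows the length of the lists and no direction is read from it. From day 0 to day 9, 10 of the 57 fell (14.8% of all genes did) and 11 rose (16.4%) at an adjusted p under 0.05. The targets Tgfbi (-5.93 kb), Pmepa1 (-6.51 kb) and Ccn2 (-2.11 kb) and the SMAD corepressor gene Ski (-9.83 kb) were among those that fell, and Acvr1c (+4.76 kb), Gdf10 (+3.37 kb) and Inhbb (+1.04 kb) among those that rose. From day 0 to day 3, 22 fell (25.2% of all genes did) and 1 rose (1.18%).

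The genes whose covered kb followed each member most closely over the 24 libraries had correlations of 0.93 to 0.977 (Pearson's r). They were B3gnt8 for Tgfb1 (0.976), Fbxl19 for Tgfb2 (0.941), Sik3 for Tgfb3 (0.961), Itgb5 for Inhba (0.97) and Gab2 for Tgfbr1 (0.93). They were Susd6 for Tgfbr2 (0.975), Ebf1 for Bmpr1a (0.974), Antxr1 for Smad3 (0.974) and Tram2 for Smad7 (0.977). B3gnt8 lies on chromosome 7 from 25626654 to 25635100, on the same chromosome as Tgfb1. All points share their libraries, whose covered length varied between 20.69 and 96.38 Mb, so these values describe likeness only.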

How the data were processed

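The 24 H3K27ac libraries were deposited as MACS2 narrowPeak lists on mm10. Per the labels and the study's methods, the authors trimmed reads with cutadapt 1.18, aligned them with BWA, and called peaks with MACS2 2.1.1.20160309 in each library without pooling replicates. The deposited lists give a fold enrichment at each summit (a ratio over local background) together with a p-value and a q-value, each as -log10. The 16 input libraries were not used here, and which of them served as control is not stated. The lowest -log10 q of a list was 2.001 to 2.052.

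Covered kb was the length of the union of a library's peaks in the gene window. Genes with a peak in at least 3 libraries were tested (15204 of 21938). Genotype was permuted within days (160000 relabellings, smallest p 1.25e-05), days within genotype (400, smallest p 0.005), two-sided, with Benjamini-Hochberg adjustment over all genes tested and a threshold of 0.05. Regions were merged peaks overlapping across libraries, tested where called in 3 to 21 libraries. The 10 members were named by rule, with the gene of highest Pearson correlation for each and, of the other pathway genes, those past the adjusted threshold or else the 5 with the smallest p. The day 9 and rank genes of that list named above, and the regions past p 0.05 beyond the lowest of each locus, were picked after seeing values. Members, lists and tests were chosen with earlier results of these data known. Alternatives were a stricter q, the 20000 strongest peaks, 250 bp either side of summits, kb per covered Mb, the gene span alone, libraries left out and a replicate block. Same-numbered libraries were not treated as pairs: the correlations of their deviations ran from -0.837 to 0.898, and 4 of 12 were over 0.1. Scripts were tested on simulated data, in Python 3.11.15 with numpy 2.4.6, pandas 2.3.3 and numba 0.67.0. Sequence came from GRCm38 and RefSeq promoters. The promoters of Tgfb3 and Smad7 were not in the table used.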

Additional observations from a re-analysis of the deposited data

Results flagged for a closer look

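Tgfb1 was the gene whose genotype difference in covered kb took opposite signs on different days with no overlap between the genotypes. The DKO minus WT difference was +1.59 kb at day 0, where all 3 DKO libraries lay above WT, -0.65 kb at day 6, where all 3 lay below, and +1.15 kb at day 9, where all 3 lay above. The test of a change with the day gave an exact permutation p of 0.0801 (adjusted p = 0.141), which missed the threshold. As kb per covered Mb of library the day 6 difference was +0.0221, with the 5 kb upstream, which overlap B9d2. The strongest Tgfb1 peak had a fold of 6.06 to 8.93 in DKO and 12.6 to 15.1 in WT at day 6, and of 14.3 to 17.9 in DKO and 9.84 to 13.1 in WT at day 9.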

How the results depend on the processing

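The counts that follow are of pairs of a gene and an alternative setting. Of the genotype differences in covered length, 106 kept their direction and side of the threshold, 9 passed only in the alternative and 11 turned. The 9 belonged to Smad3, Smad7 and Tgfb1, as kb per covered Mb except for Smad3 with peaks set to 250 bp either side of the summit. Of the ranks 79 kept both and 2 turned. Of the day 9 minus day 0 differences 46 kept both, 39 no longer passed and 5 turned. The 39 include the settings with a replicate left out or the 20000 strongest peaks, where no gene of all tested passed between these days. They thus do not measure dependence on the processing alone. Of the day 6 differences 45 stayed within the spread of the libraries, 23 moved beyond it and 4 turned. Shares in brackets are those of all genes tested under the same setting. The number of genes called by genotype was 0, but 3 as kb per covered Mb (5.69% lower and 9.19% higher in DKO). It was 3 on that scale without DKO day 0 replicate 2 and 2 on it over the gene span alone (both chosen after seeing the data). It was 1 with peaks set to 250 bp either side of the summit. The share of all genes called by genotype was not counted for these last settings, so their counts are not read as particular to the 9 genes. The number called was 0 when a replicate number was left out, 0 with the replicate block for kb and 0 for the rank, where Bmpr1a kept a log2 difference of 1.15 (exact sign-flip permutation adjusted p = 0.115). Counts without overlap at day 6 below WT (9) became 3 as kb per covered Mb (14.4%) and 6 among the 20000 strongest peaks (28.8%), and above WT (0) became 1 on the former scale (37.8%). At day 0 below WT, 0 became 3 with 250 bp windows (7.22%), 2 as kb per covered Mb (10.6%) and 2 without DKO day 0 replicate 2 (9.37%), with 0 to 2 when a replicate was left out. Above WT, 1 became 0 with -log10 q of at least 5 (18.8%), with the 20000 strongest (12.9%), with 250 bp windows (1.5%), as kb per covered Mb (10.9%) and over the gene span (17%), and 2 to 4 with a replicate left out (28.6% to 47%). At day 3 below WT, 1 became 2 with the 20000 strongest (8.47%), 2 as kb per covered Mb (7.73%) and 8 without WT day 3 replicate 3 (51.5%), with 1 to 8 when a replicate was left out (13.1% to 54.1%). Above WT at day 3, 0 became 1 as kb per covered Mb (12.2%). At day 9 below WT, 0 became 1 with the 20000 strongest (2.66%) and 3 as kb per covered Mb (13.5%), with 0 to 3 when a replicate was left out. Above WT, 1 became 2 with the stricter q (27.8%) and with 250 bp windows (10.6%), with 1 to 5 when a replicate was left out (33.8% to 50.8%).

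With the 20000 strongest peaks every between-day count was 0, and so was that of all genes, and with 250 bp windows 0% of all genes were called between days 0 and 3. Lower at day 9 than day 0, 5 became 3 with the stricter q (12.8%), 3 over the gene span (12.5%), 0 with 250 bp windows (4.1%) and 0 with the 20000 strongest (0%). Higher, 2 became 1 with 250 bp windows (10.8%) and 0 with the 20000 strongest (0%). From day 0 to day 3, lower, 5 became 0 with the 20000 strongest or 250 bp windows (0% each), 2 as kb per covered Mb (15.3%) and 3 without WT day 3 replicate 3 (20.2%), and higher, 0 became 2 as kb per covered Mb (18.8%). From day 3 to day 6, lower, 0 became 5 as kb per covered Mb (9.71%) and 2 without WT day 3 replicate 3 (5.29%), and higher, 0 became 2 on that scale (10.5%). From day 6 to day 9, lower, 0 became 1 (6.89%), and higher, 0 became 2 (7.43%) on it. With a replicate left out every between-day count was 0, for all genes too, since 2 libraries per group allow too few relabellings to pass after adjustment. Regions called more often in WT (6) became 0 of 19 tested with the 20000 strongest peaks (2.68% of all regions), and those more often in DKO (0) became 1 without DKO day 0 replicate 2 (0.689%).

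Signs turned in these cases. In kb over the days, Inhba was 0.16 and Tgfbr2 0.51 with the 20000 strongest, and Tgfb3 was 0.0012 as kb per covered Mb and 0.00225 also without DKO day 0 replicate 2. Without day 6 the values were 0.27 for Tgfb2, 0.183 for Tgfb3, 0.178 for Inhba, 0.419 for Tgfbr1 and 2.35 for Tgfbr2. With a replicate left out, Tgfb2 ran from -0.617 to 0.109 and Inhba from -0.326 to 0.105 (-0.433 without DKO day 0 replicate 2), and the Tgfb1 log2 rank from -0.246 to 0.248 (0.109 without DKO day 0 replicate 2). At day 6 Tgfb1 was 0.396 kb with 250 bp windows and 0.0221 as kb per covered Mb, where Tgfb3 was 0.0129 and Bmpr1a 0.00218. From day 0 to day 9 Tgfb2 ran from -0.376 to -0.008 with a replicate left out and was 0.0918 with the 20000 strongest, 0.356 with 250 bp windows and 0.225 without DKO day 0 replicate 2, and Tgfbr1 was 0.398 without that library and -1.09 to 0.609 with a replicate left out. The cause of these differences was not tested. Depth is unknown, so weak peaks limit every count.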
